A study of Mus musculus with 2 samples.

Results

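The choroid plexus is the secretory epithelium that hangs into the ventricles of the brain, and here its position was read from spatial transcriptomics of 2 coronal mouse brain sections. Each spot was scored by the mean, over the genes Folr1, Kcnj13, Clic6, Kl and Enpp2, of the natural log of 1 plus the gene's unique molecular identifiers (UMIs, each standing for 1 captured transcript) per 10000 UMIs of the spot. The 50 highest-scoring spots with at least 1000 UMIs were taken in each section, so that 100 of 7890 spots were members, 50 of 4152 in the section labelled trained and 50 of 3738 in the section labelled untrained. The 3864 and 3546 other spots with at least 1000 UMIs served as the remaining spots of the same section. The members were thus chosen by the measured values of these 5 genes, and every contrast between members and remaining spots is a description without a test.

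Both sections came from adult male ArcCreERT2::eYFPflx mice on a C57BL/6 background, aged 3 to 4 months. Both mice therefore carried the tamoxifen-dependent Cre recombinase driven by the Arc promoter and the floxed eYFP reporter. The mouse labelled trained had learned to avoid a shock sector in active place avoidance, a rotating arena task, and the mouse labelled untrained had explored the same arena with the shock always off. Each mouse was given a retention test 1 day after the last training session, and its brain was taken 1 h later and cut at the level of the dorsal hippocampus on a Visium slide. There was 1 mouse, 1 section and 1 library per condition, so training, mouse, section and library cannot be told apart, and no p-value or standard error is given. The 95% intervals below are exact and cover counting error only.

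The sections held 29515831 UMIs (labelled trained) and 59029131 UMIs (labelled untrained). Spot barcodes name positions on the slide, and 3448 of them occurred in both sections. Of these, 8 were members in both sections.

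The choroid plexus is built of a cuboidal, ciliated epithelium around a stroma with fenestrated capillaries, and it produces the cerebrospinal fluid. Ion pumps and carriers move sodium, chloride and bicarbonate across the epithelium, tight junctions seal it, and the cells release carrier proteins and growth factors into the fluid. Ciliated ependymal cells line the ventricle walls next to it. A Visium spot covers several cells, so a spot of choroid plexus can also hold ependyma, fluid space and the brain tissue beside it, and fewer cells of a type and less RNA per cell cannot be told apart.

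The 5 genes of the rule stand for different functions of this epithelium. Folr1 (chr7:101858331-101870788, minus strand) is the folate receptor that carries folate into the fluid, Kcnj13 (chr1:87386363-87394729, minus strand) is the potassium channel Kir7.1, and Clic6 (chr16:92485736-92541243, plus strand) is an intracellular chloride channel protein. Kl (chr5:150952607-150993817, plus strand) is klotho, and Enpp2 (chr15:54838901-54952892, minus strand) is autotaxin, a secreted enzyme that makes lysophosphatidic acid. Positions are on mm10. Folr1 overlaps Anapc15, Kcnj13 overlaps Gigyf2 and Enpp2 overlaps Gm26684 on the opposite strand, and whether the counting used strand is not given in the sources used here.

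The score, which chose the members, differed between the sections. That of the trained members ran from 1.30 through a median of 1.80 to 2.76, and the first spot left out had 1.27. That of the untrained members ran from 2.47 through a median of 2.65 to 2.85, and the first spot left out had 2.47 as well. A score as high as the lowest trained member was reached by 132 spots of the section labelled untrained, whereas 6 spots of the section labelled trained reached the lowest untrained member. The members were also deeper. Their UMIs ranged from 2564 through 10247.5 (median) to 24376 in the section labelled trained and from 17816 through 46058 to 73809 in the section labelled untrained, against medians of 6216.5 and 14028.5 in the remaining spots. Among the trained members the log of the UMI total correlated with the score (Pearson r = 0.47 over 50 spots of 1 library), and among the untrained members it did not (r = -0.0050).

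The rule did not use position, and the members lay in compact groups. On the hexagonal grid, 45 of the 50 trained members and 46 of the 50 untrained members had another member as a direct neighbour, and they formed 11 and 7 connected patches. The 3 trained patches of at least 8 spots held 16 spots at grid columns 116 to 122, 12 spots at columns 65 to 70 and 11 spots at columns 13 to 17. The middle patch, at rows 26 to 30, lay close to the habenular gene Gpr151, whose UMIs had their median at column 69 and row 34. The 3 large untrained patches held 21 spots at columns 1 to 8, 16 spots at columns 8 to 17 and 9 spots at columns 119 to 123. When the grid was divided into 3 bands of columns, the middle band held 12 of the trained members and 1 of the untrained members. The middle band held 10 of the 132 untrained spots that reached the trained minimum. The members labelled trained thus came from both sides and the midline of the section, and those labelled untrained came almost entirely from the sides.

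**Figure D1:**
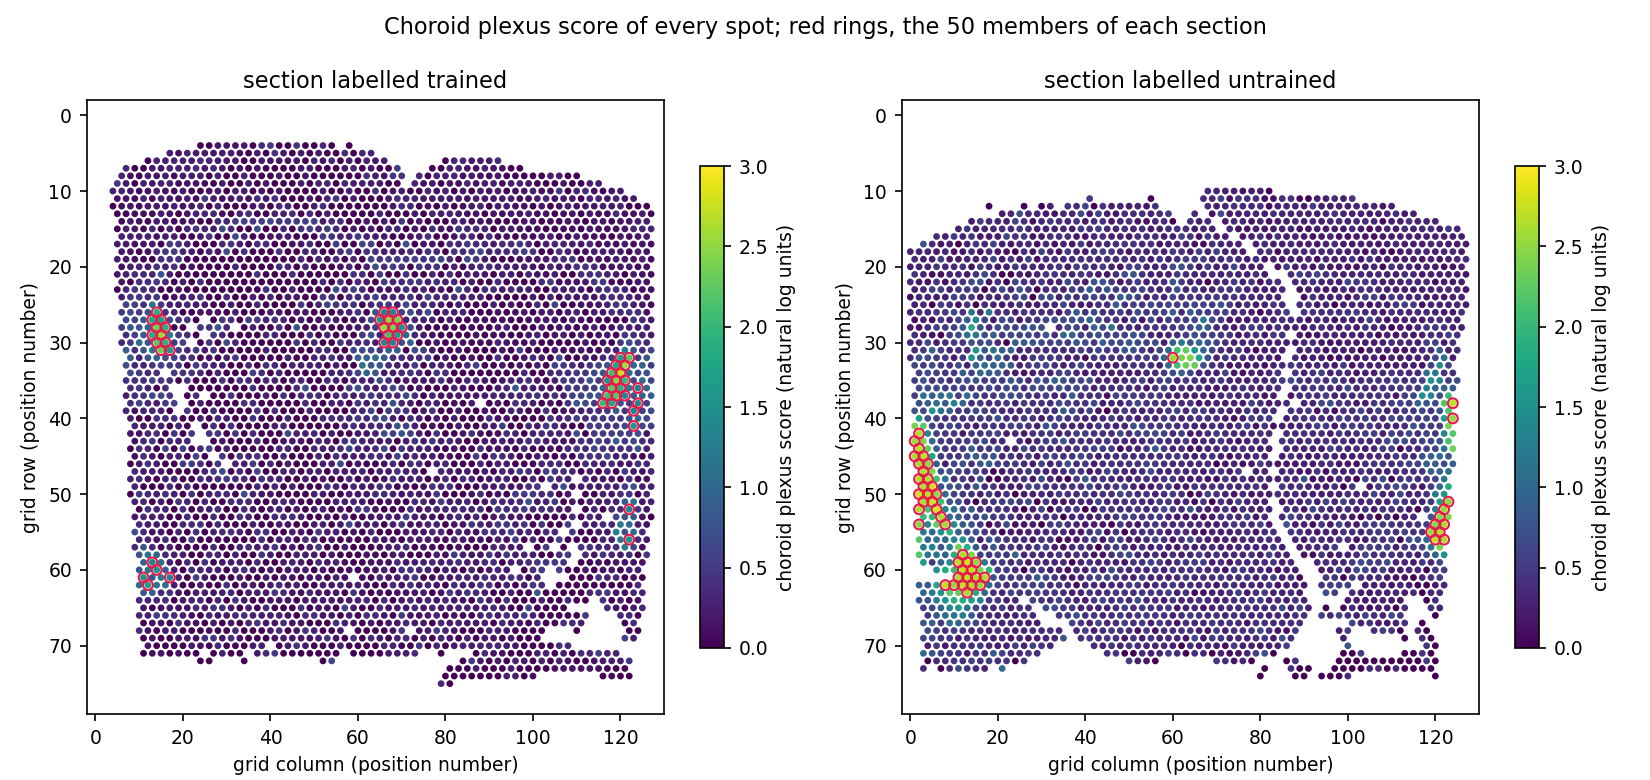
Choroid plexus score of every spot, by grid column and row, in the section labelled trained (left) and untrained (right), with red rings around the 50 members of each. The members sit mostly in compact patches of 16, 12 and 11 spots in the section labelled trained, 1 of them in the middle of the columns, and in lateral patches of 21, 16 and 9 spots in the section labelled untrained.

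The values that chose the members were as follows. Enpp2 was at 7510 CPM (UMIs of the gene per 1000000 pooled UMIs) in the trained members and 224 in the remaining spots, and at 13178 and 586 in the untrained section. Kl was at 897 and 11.2 CPM in the section labelled trained and at 880 and 30.2 in the section labelled untrained. Clic6 was at 550 and 11.6 CPM, and at 1109 and 42.1. Kcnj13 was at 177 and 2.14 CPM, and at 354 and 11.95. Folr1 was at 172 and 3.63 CPM, and at 705 and 31.6. In single spots of the section labelled trained, Folr1 had no UMI in 12 of 50 members and Kcnj13 none in 11. In the section labelled untrained every member held UMIs of all 5. The trained members were also shallower (median 10247.5 against 46058 UMIs). When every spot was thinned to 1000 UMIs, Folr1 was found in 12% of the trained and 38% of the untrained members. Kcnj13 was then found in 14% and 22%, so both genes were missing from most members of either section at that depth.

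Transthyretin dominated the members. Ttr, which encodes the carrier of thyroid hormone and of the retinol-binding protein in the cerebrospinal fluid, made up 17.96% of all UMIs of the trained members and 25.1% of those of the untrained members, against 0.205% and 0.834% in the remaining spots. Across single members its level ran from 38086 through 130289 (median) to 342273 CPM in the section labelled trained and from 140496 through 253368 to 313362 CPM in the section labelled untrained. The medians of the remaining spots were 657 and 2724 CPM. The log2 ratio of members over remaining spots was 6.45 (interval 6.44 to 6.47) in the section labelled trained and 4.91 (4.91 to 4.92) in the section labelled untrained. The members held 62.4% and 55.7% of all Ttr UMIs of their sections. At least 1 Ttr UMI was also found in 93.8% (labelled trained) and 99.6% (labelled untrained) of the remaining spots, and in 53.6% and 91.4% when every spot was thinned to 1000 UMIs. A Ttr UMI in a spot is therefore no mark of choroid plexus by itself, and where the Ttr UMIs of the remaining spots came from was not tested.

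**Figure D2:**
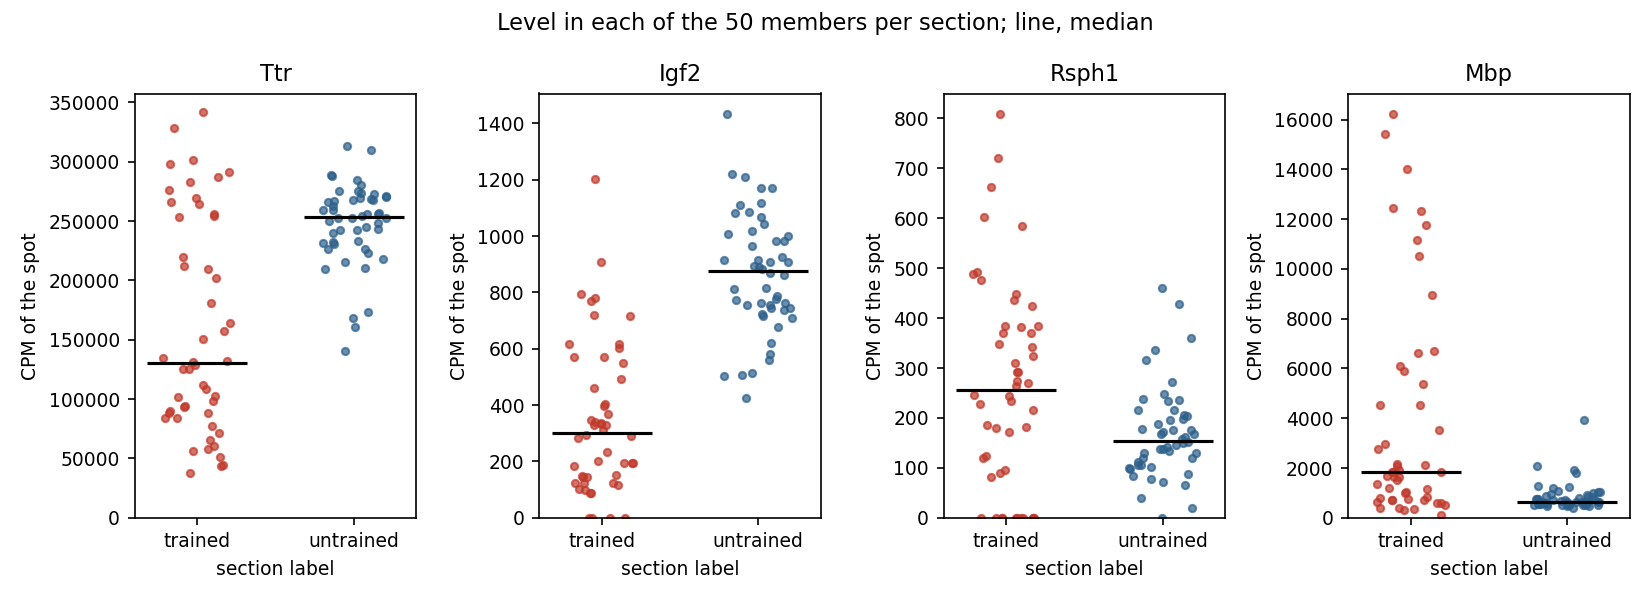
CPM of Ttr, Igf2, Rsph1 and Mbp in each of the 50 members of the sections labelled trained (red) and untrained (blue), on linear axes that start at 0, with a line at the median. Ttr ranges from 38086 to 342273 CPM in the trained members and from 140496 to 313362 CPM in the untrained members, while the median of Mbp is 1850 and 643 CPM.

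Across all genes, 327 of 8425 genes with at least 400 UMIs in the section labelled trained were at least 2-fold higher in the members (3.88%), and 1734 were at least 2-fold lower (20.6%). In the section labelled untrained 758 of 10477 genes were at least 2-fold higher (7.23%) and 3543 at least 2-fold lower (33.8%). In both sections, 249 of 8408 genes were higher (2.96%) and 1460 lower (17.4%). The large share of Ttr lowers the CPM of every other gene of the members: the median log2 ratio of all genes was -0.36 in the section labelled trained and -0.62 in the section labelled untrained. When the total was taken without Ttr and the genes of the mitochondrial genome, these medians moved to -0.13 and -0.25, and the share of higher genes among those past 2-fold moved from 15.9% to 29.7% and from 17.6% to 31.3%. Ratios below are on the scale with all genes in the total and can be read against these medians.

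The genes other than the 5 of the rule that were highest in the members of both sections included carriers, secreted factors and enzymes. Ecrg4, which encodes a secreted peptide precursor, had 1144 CPM in the trained members and 14.1 in the remaining spots (log2 ratio 6.34, interval 6.16 to 6.53), and 1338 and 58.0 CPM in the section labelled untrained (4.53, 4.46 to 4.60). It was above 0 in every member, with a lowest value of 72.4 and 823 CPM. Igfbp2, a binding protein of insulin-like growth factors, had 1085 against 38.2 CPM (4.83, 4.68 to 4.97) and 1986 against 104 CPM (4.26, 4.20 to 4.31). Igf2, the growth factor itself, had 365 against 17.2 CPM (4.41, 4.17 to 4.65) and 864 against 61.2 CPM (3.82, 3.74 to 3.90). Its level in single members ran from 0 through 302 to 1203 CPM and from 426 through 876 to 1434 CPM, so the 2 groups of spots overlapped.

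Ace, the angiotensin-converting enzyme, had 530 CPM in the trained members against 18.9 in the remaining spots (4.81, 4.59 to 5.01) and 596 against 28.5 CPM in the section labelled untrained (4.39, 4.28 to 4.49). Cox8b, a subunit of cytochrome c oxidase, had 521 against 7.92 CPM (6.04, 5.78 to 6.30) and 713 against 26.5 CPM (4.75, 4.65 to 4.85). Calml4, a calmodulin-like protein gene, had log2 ratios of 6.20 and 4.50, and 2900040C04Rik had 6.52 and 4.60. The cation channel gene Trpm3 had 3.43 and 3.49, the protease inhibitor gene Spint2 had 3.62 and 3.76, and Col9a3, a chain of collagen IX, had 4.22 and 4.15. Rdh5, a retinol dehydrogenase gene, had 4.40 and 4.07. Hemk1, a methyltransferase gene, had 3.995 and 3.92, and Cab39l, a scaffold of the kinase LKB1, had 3.75 and 3.43. Ecrg4, Calml4, Ace, Col9a3, Igf2, Trpm3 and Cab39l overlap genes on the opposite strand, so reads of these pairs may not be separable.

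Promoters were examined for the core motif of OTX homeodomain factors, because Otx2, which specifies and maintains the plexus epithelium, was itself at 219 CPM in the trained members against 4.18 in the remaining spots and at 205 against 11.2 CPM in the section labelled untrained. The letters TAATCC, or GGATTA on the other strand, were searched in RefSeq promoters of build GRCm38.p6, each 250 bases before to 50 bases after a gene start. They occurred in 18 of the 251 promoters of genes at least 2-fold higher in both sections (7.17%), in 74 of 1568 promoters of genes lower in both (4.72%) and in 2320 of all 32851 promoters (7.06%). For the epithelium list they occurred in 3 of 29 promoters (10.3%). Of the 20 genes of the rule and the leading genes, 14 were matched in the promoter table, with 21 promoters, and 2 of these held the motif. They are shown because they are the matches among the leading genes, with the motif in capitals, Ace at chr11:105967698-105967997 on the plus strand and one of the promoters of Igf2 at chr7:142658755-142659054 on the minus strand.
Ace: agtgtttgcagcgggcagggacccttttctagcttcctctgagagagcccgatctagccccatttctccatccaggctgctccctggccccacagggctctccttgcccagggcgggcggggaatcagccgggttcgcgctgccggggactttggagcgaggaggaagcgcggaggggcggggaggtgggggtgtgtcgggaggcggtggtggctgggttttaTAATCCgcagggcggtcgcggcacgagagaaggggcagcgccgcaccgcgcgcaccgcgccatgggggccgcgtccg
Igf2: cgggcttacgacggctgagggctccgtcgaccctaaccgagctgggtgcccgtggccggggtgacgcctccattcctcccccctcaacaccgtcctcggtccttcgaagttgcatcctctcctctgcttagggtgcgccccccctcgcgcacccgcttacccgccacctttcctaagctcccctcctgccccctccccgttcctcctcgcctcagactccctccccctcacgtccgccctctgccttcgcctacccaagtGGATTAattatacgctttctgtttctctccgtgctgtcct
A match of 6 letters describes the sequence and is not evidence of binding.

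The epithelium was checked against its markers. All 26 genes of a list of choroid plexus epithelium genes had their whole interval above 2-fold in the members of both sections, where 4.12% of 20511 detected genes did so in the section labelled trained and 6.18% of 21498 in the section labelled untrained. This count includes Mfrp, which rested on 2 and 7 UMIs in the members. The median log2 ratio of the list was 5.72 and 4.39. Besides the genes above, F5, coagulation factor V, had 188 against 2.11 CPM and 281 against 9.24 CPM, Sostdc1, a secreted antagonist of BMP and Wnt signals, had 184 against 4.29 and 282 against 12.7 CPM, and the homeobox gene Msx1 had 192 against 3.53 and 207 against 11.6 CPM. Htr2c, the serotonin 5-HT2C receptor, had one of the smaller ratios of the list (2.12 and 2.40), with 33.1 and 39.0 CPM in the remaining spots. The rule did not use these genes, but they were measured in the same spots.

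Genes of ion and water transport were high in part. Of 19 listed genes, 12 in the section labelled trained and 13 in the section labelled untrained had their interval above 2-fold and 0 below, where 4.12% and 6.18% of detected genes were above and 1.68% and 10.2% below. Kcne2, the accessory subunit of potassium channels, had 258 against 2.73 CPM (6.55) and 383 against 13.4 CPM (4.84). Aqp1, the water channel of the apical membrane, had 96.8 against 1.83 CPM (5.72, 5.15 to 6.30) and 289 against 9.34 CPM (4.95, 4.78 to 5.12). The bicarbonate transporters Slc4a5 (6.20 and 4.60) and Slc4a2 (3.28 and 3.72), the carbonic anhydrase Car12 (4.91 and 4.09), the cation channel Trpv4 (5.84 and 4.46) and the sodium-potassium-chloride cotransporter Slc12a2 (1.96 and 2.15) were all high. Atp1b1, the beta subunit of the sodium pump, was instead lower in the members of both sections (-0.90 and -0.93). It is also used by neurons, whose summed genes were lower in the members, and the part of this in the ratio was not tested. Fxyd1, a regulator of the pump, was at 2.83 and 2.64.

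Solute carriers were above 2-fold for 13 of 25 genes in the section labelled trained and 18 of 25 in the section labelled untrained and below for 0 in both, against 4.12% and 6.18% of detected genes above and 1.68% and 10.2% below, with medians of 2.21 and 2.07. The monocarboxylate transporter Slc16a8 had 76.7 against 0.692 CPM (6.78) and 137 against 4.57 CPM (4.91), and the zinc transporter Slc39a4 had 23.8 against 0.415 and 53.8 against 2.30 CPM. The sulphate transporter Slc13a4 was at 4.42 and 4.26 and the copper transporter Slc31a1 at 3.28 and 3.51. The glucose transporter Slc2a1, also present in capillaries, had 0.82 and 0.60, and Slc2a12, another glucose transporter, had 3.45 and 4.23. Slc7a11 had intervals that included 0 in the section labelled trained (0.46, -0.51 to 1.20) and lay below 0 in the section labelled untrained (-0.62, -1.22 to -0.13).

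Of 22 genes of secreted proteins, 13 and 14 were above 2-fold (4.12% and 6.18% of detected genes) and 0 and 0 below (1.68% and 10.2%). Beyond those named, Bmp6 (3.56 and 3.50), Bmp7 (2.27 and 2.67) and ceruloplasmin, Cp (3.19 and 2.19), were high, and clusterin, Clu, was higher by less (1.13 and 1.30). Cst3, the gene of cystatin C, did not stand out, with 3449 against 3202 CPM (0.11) and 2599 against 2940 CPM (-0.18). Vegfa, which maintains fenestrated capillaries, had 40.2 against 28.7 CPM (0.52, -0.20 to 1.09) and 35.1 against 19.8 CPM (0.83, 0.48 to 1.15). Lcn2 had no UMI in the members of either section.

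The junctions of the epithelium differed from those of the brain. Of 18 genes of junctions and epithelial cytoskeleton, 12 and 10 were above 2-fold (4.12% and 6.18% of detected genes) and 0 and 2 below (1.68% and 10.2%). Cldn2, the claudin of leaky epithelia, had 78.5 against 1.31 CPM (5.90) and 188 against 7.58 CPM (4.63), Cldn1 had 42.01 against 1.24 (5.09) and 39.4 against 1.87 (4.40), and Cldn3 was at 6.06 and 3.51 on 9 and 51 UMIs. The keratins Krt8 (6.52 and 4.35) and Krt18 (5.54 and 4.42) and the membrane linker Ezr (2.83 and 2.92) were high as well. Cldn10 and the neural cadherin Cdh2 were lower in the members, at -1.27 and -2.39 and at -0.84 and -1.44. Cdh1 had 4 UMIs in the trained members and 0 in the untrained members, where 3 UMIs over the members is the limit that a count of 0 allows.

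**Figure D3:**
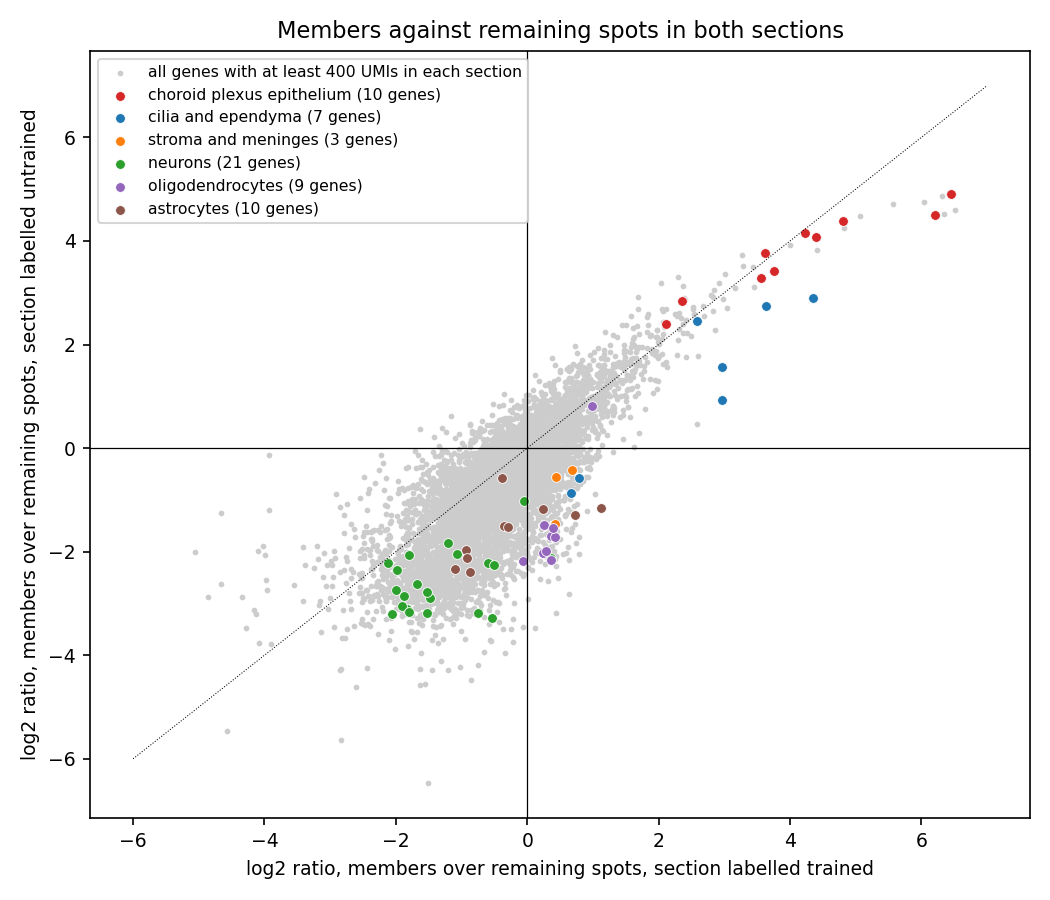
Log2 ratio of members over remaining spots in the section labelled trained (horizontal) and untrained (vertical) for the genes with at least 400 UMIs in each section, with 6 gene lists in colour and a dotted line of equal ratios. Choroid plexus epithelium genes lie at the upper right of the cloud, neuronal genes at the lower left, and 8 oligodendrocyte genes near 0 on the horizontal axis and below -1 on the vertical axis, apart from Pdgfra at 0.99 and 0.80.

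Cilia and ependyma genes were high in the members of both sections, with 18 of 20 genes above 2-fold in the section labelled trained and 17 of 20 in the section labelled untrained, against 4.12% and 6.18% of detected genes, and medians of 3.83 and 2.26. Foxj1, the master regulator of motile cilia, had 124 against 8.40 CPM (3.89, 3.48 to 4.28) and 82.5 against 13.7 CPM (2.60, 2.36 to 2.82). Rsph1, a radial spoke protein, had 274 against 13.4 CPM and 163 against 21.9 CPM. Both the plexus and the ependyma carry cilia, and the position of these genes relative to the members differed. Ccdc153, an ependymal gene, had 126 CPM in the trained members and 59.9, 26.7 and 9.79 CPM at 1, 2 and 3 grid steps from the nearest member. For the untrained section it had 72.8 CPM in the members and 356 CPM at 1 step, and fell off to 192 and 101 CPM at 2 and 3 steps. Its highest level was thus in the members of one section and beside the members of the other.

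The same distances gave the levels around the chosen spots, whose border need not be the edge of the plexus. Ttr fell from 179597 CPM in the trained members to 30575 at 1 step, 11049 at 2 steps, 3799 at 3 steps, 2441 at 4 steps and 820 at 5 steps or more. In the section labelled untrained it fell from 251095 to 126420, 44516, 26528, 20644 and 3290 CPM. The median score at 1 step was 0.735 in the section labelled trained and 1.82 in the section labelled untrained. The latter was above the median of the trained members themselves (1.80), so the steps of the 2 sections are not alike. Snap25, the synaptic gene, rose outwards, from 532 CPM in the trained members to 1065 at 1 step and 2323 at 5 steps or more, and from 166 to 336 and 1639 CPM in the section labelled untrained. Mbp, myelin basic protein, had 3507 CPM in the trained members and 6279 at 1 step, and 814 CPM in the untrained members, 4740 at 1 step and 7618 at 2 steps. Mbp was thus higher beside the members than in them in both sections.

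**Figure D4:**
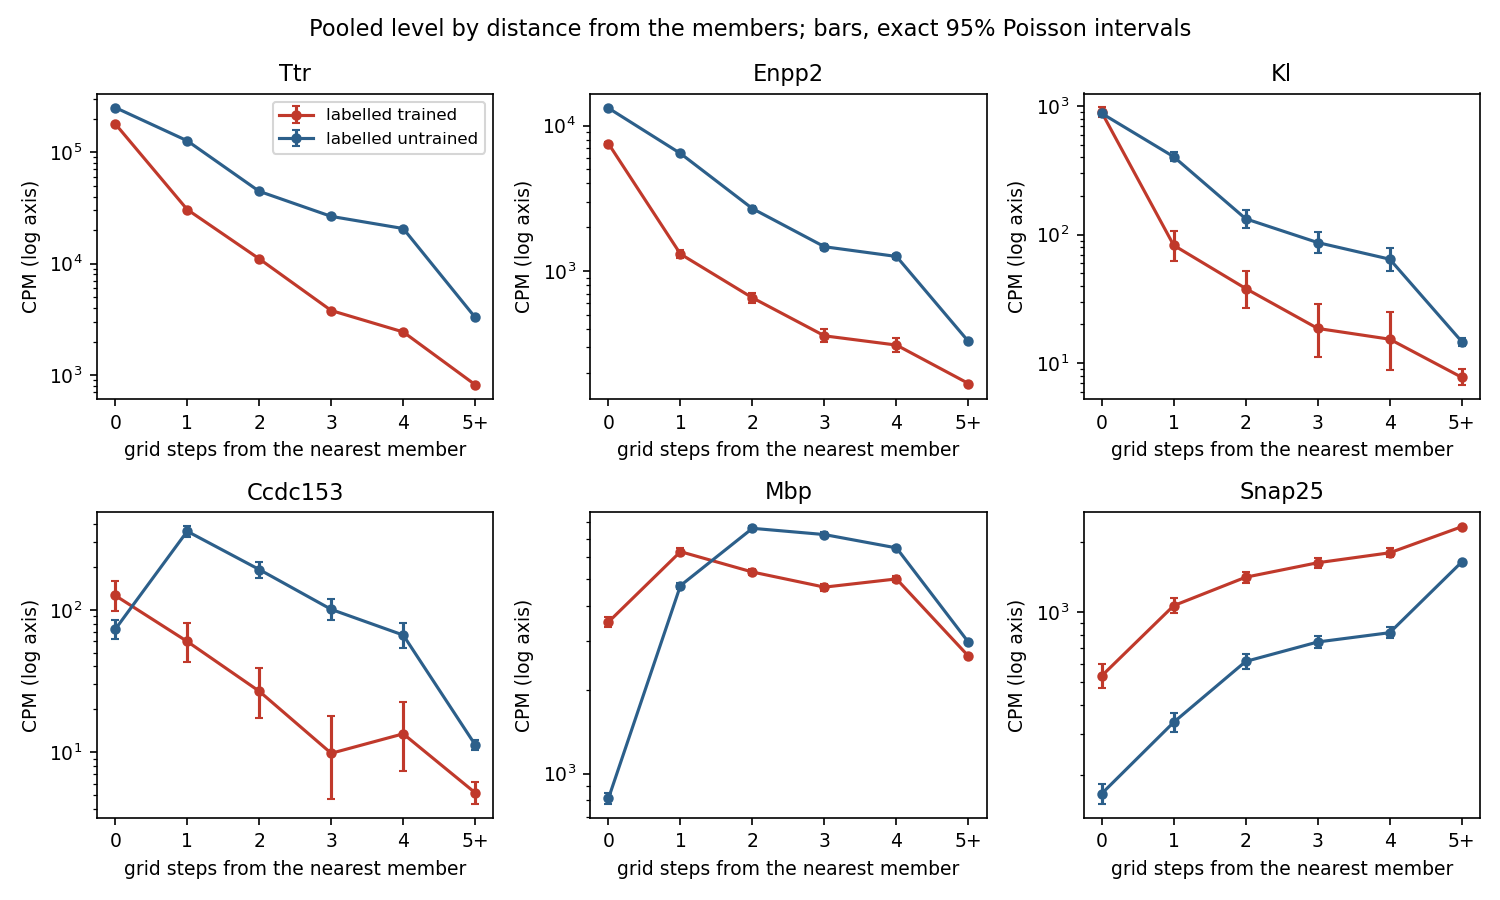
Pooled CPM on a log axis of Ttr, Enpp2, Kl, Ccdc153, Mbp and Snap25 in spots at 0 (the members) to 5 or more grid steps from the nearest member, in the sections labelled trained (red) and untrained (blue), with exact 95% Poisson intervals. Ttr falls at every step in both sections, Ccdc153 is highest in the trained members but at 1 step in the section labelled untrained (356 CPM), and Snap25 is lowest in the members.

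Of 16 genes of stroma and meninges, 9 and 8 were above 2-fold, against 4.12% and 6.18% of detected genes, and 0 and 1 below, with log2 ratios from 0.43 to 4.29 and from -2.74 to 3.65. Among the higher ones were Dcn, decorin (85.9 against 10.5 CPM and 64.8 against 19.5 CPM), Ogn (3.94 and 3.50) and Pcolce (4.29 and 3.65). At 1 and 2 steps from the untrained members Dcn was at 75.5 and 73.1 CPM, with intervals that overlapped that of the members. Of 15 endothelial genes, 1 and 3 were above 2-fold, against 4.12% and 6.18% of detected genes, and 0 and 2 below. Those above were Esm1 in the section labelled trained, on 3 UMIs, and Esm1, Kdr and Slco1a4 in the section labelled untrained. Plvap, the marker of fenestrated capillaries, had 36.5 against 29.2 CPM (0.36, -0.39 to 0.96) and 55.0 against 28.5 CPM (0.96, 0.68 to 1.21), while Cldn5, the claudin of the blood-brain barrier, had 18.3 against 27.1 CPM (-0.50, -1.63 to 0.32) and 8.04 against 44.9 CPM (-2.44, -3.21 to -1.83). The haemoglobin genes, summed with Alas2, were at 1186 against 1982 CPM and 1135 against 1290 CPM. Reads of the paired haemoglobin copies may not be separable.

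Of 18 macrophage and microglia genes, 5 were above 2-fold in the section labelled trained, namely Cd74, H2-Aa, H2-Ab1, H2-Eb1 and Lyz2, and 0 in the section labelled untrained, against 4.12% and 6.18% of detected genes. The interval lay below 0 for 0 and 9 of the 18, against 14.9% and 32.6% of detected genes, and the difference between the sections was not tested. Cd74, the invariant chain of MHC class II, had 32 UMIs in the trained members (58.5 against 6.40 CPM; 3.21, 2.60 to 3.74) and 26 in the untrained members (11.01 against 5.56 CPM; 1.01, 0.35 to 1.56). It had no UMI in 39 of 50 trained members and reached 2960 CPM in the highest, so a few spots carried it. P2ry12 and Tmem119, markers of parenchymal microglia, were not higher in the members of either section (-0.53 and -1.40, and -0.44 and -0.75).

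Neuronal genes were low. In the section labelled trained 13 of 22 genes had their interval below 2-fold and in the section labelled untrained 21 of 22, where 1.68% and 10.2% of detected genes did so. Their summed level was 2806 CPM in the trained members against 8998 in the remaining spots and 1055 against 7637 CPM in the section labelled untrained. The genes lowest in the members of both sections were Oxt, the gene of oxytocin (15 UMIs in the trained members, 27.4 against 674 CPM, and 3 UMIs in the untrained members, 1.27 against 65.5 CPM; -5.47, -7.97 to -4.14), and Vip (1 and 5 UMIs). They further included Slitrk1, Slitrk5, Gm11549, Abcd2 and Rph3a, with 1, 2, 1, 1 and 7 UMIs in the trained members and 9, 9, 3, 7 and 45 in the untrained members. Rph3a, a synaptic vesicle protein gene, had 12.8 against 146 CPM (-3.41, -4.83 to -2.47) and 19.0 against 149 CPM (-2.95, -3.43 to -2.55). The cortical genes 9130024F11Rik, Dkkl1 and Fezf2 had no UMI in the trained members, which against the limit of 3 UMIs over the members was at least 2.81-fold, 3.24-fold and 2.97-fold lower than in the remaining spots.

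Immediate early genes, which neurons switch on with activity, were low as well. Of 22 such genes, 3 and 15 had their interval below 2-fold (1.68% and 10.2% of detected genes) and 0 above (4.12% and 6.18%). Arc, whose promoter drives the Cre in these mice, had 12.8 CPM in the trained members against 75.8 in the remaining spots (-2.47, -3.88 to -1.52) and 6.35 against 70.2 CPM in the section labelled untrained (-3.42, -4.31 to -2.74). Fos had 3.65 against 31.99 CPM on 2 UMIs and 2.96 against 27.8 CPM on 7. Plat, tissue plasminogen activator, was the only gene of this list with its interval above 0 in both sections (1.03, 0.27 to 1.63, and 0.62, 0.22 to 0.98).

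Mitochondrially encoded genes were lower in the members, with the interval below 0 for 13 of 13 genes in both sections, where 14.9% and 32.6% of detected genes had theirs below 0 and 9.53% and 13.4% above it. They took 7.74% of UMIs against 12.4% and 10.7% against 16.4%. Their summed log2 ratios were -0.68 and -0.62, and -0.45 and -0.25 with Ttr and these genes left out of the total. Of 13 metallothioneins and oxidative stress genes, 3 and 2 were above 2-fold (4.12% and 6.18% of detected genes) and 0 and 3 below (1.68% and 10.2%). Sod3, extracellular superoxide dismutase (3.35 and 2.81), and Nqo1 (3.08 and 2.92) were above 2-fold in both sections, whereas Gpx3 was low (-2.09 and -1.73). Among 20 hormone and signal receptors, 5 and 4 were above 2-fold and 0 and 5 below, where 4.12% and 6.18% of detected genes were above and 1.68% and 10.2% below. Prlr, the prolactin receptor, had 98.6 against 4.25 CPM (4.54) and 259 against 11.4 CPM (4.51), and Lepr, the leptin receptor, had 21.9 against 0.934 CPM (4.59) on 12 UMIs and 12.3 against 1.31 CPM (3.25) on 29. Of 12 stress-responsive genes, 0 and 1 were above 2-fold and 0 and 1 below, against the same shares of detected genes, and in the section labelled untrained 7 of 12 had their interval below 0, against 32.6%. The 1 above was the chaperone gene Hspa5 (0.57 and 1.28). The 7 genes of the subcommissural organ and tanycytes summed to 20.1 against 22.9 CPM and to 21.2 against 25.3 CPM, with single log2 ratios from -0.97 to 3.06 and from -2.82 to 1.59 and 0 UMIs of Spdef in the members of both sections.

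Oligodendrocyte and astrocyte genes were lower in the untrained members than in the remaining spots. In the trained members the 9 oligodendrocyte genes summed to 8823 CPM against 7205 in the remaining spots, and in the untrained members to 1746 against 6729 CPM. For 8 of the 9 genes the interval lay below 2-fold in the section labelled untrained, and for 0 in the section labelled trained, against 10.2% and 1.68% of detected genes. Across single trained members the sum ran from 342 through 4293 to 43673 CPM, so some held far more myelin RNA than others, and it went down as the score went up (r = -0.50 over 50 spots of 1 library). The 10 astrocyte genes summed to 1812 against 2805 CPM in the section labelled trained and to 707 against 2827 CPM in the section labelled untrained, with r = -0.72 and -0.46 against the score. The sign of the oligodendrocyte sum in the section labelled trained depended on how spots were weighted: its log2 ratio was 0.29 in the pooled UMIs, -0.04 as a mean of single spots, -0.38 in the 25 highest scores and -0.13 in thinned spots.

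The patches of the section labelled trained differed in the same genes. Between the 16-spot lateral patch and the 12-spot middle patch, 11 of 364 genes with at least 100 UMIs were at least 2-fold higher (3.02%) and 3 at least 2-fold lower (0.824%). The myelin genes Mobp (926 against 104 CPM) and Cnp (551 against 91.0 CPM), together with Qdpr and Sept4, were higher in the lateral patch than in the middle one. Ptgds, prostaglandin D synthase of the meninges and plexus, was lower there (2681 against 10253 CPM; -1.94, -2.09 to -1.78), as was Mgp, matrix Gla protein (256 against 689 CPM). Gm42418 and Pgrmc1 followed with -0.99 and -0.97. The other lateral patch, of 11 spots, had 4949 CPM of Mbp against 923 in the middle patch and 2813 in the first lateral one. Kl, a gene of the rule, was at 1148, 1001 and 925 CPM in these 3 patches and Ttr at 20.4%, 19.5% and 20.9% of UMIs.

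Between the 2 largest patches of the section labelled untrained, on the same side of the grid, 2 of 1910 genes were at least 2-fold higher (0.105%) and 5 at least 2-fold lower (0.262%). The higher genes were Bst2, an interferon-induced antiviral gene (179 against 70.2 CPM; 1.34, 0.89 to 1.83), and the chemokine Ccl9 (105 against 50.9 CPM; 1.04, 0.49 to 1.63), followed by Ccdc167, Rhbdd2 and the defensin Defb11 (147 against 77.1 CPM). Defb11 had log2 ratios over the remaining spots of 6.58 and 5.12, on 53 UMIs in the members and 29 in the remaining spots of the section labelled trained and on 248 and 171 in the section labelled untrained. The lower genes were Nap1l5, Ly6h, Vtn, Ccdc153 and Sv2a, with log2 ratios from -1.57 to -1.02.

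The comparison the study design implies, trained against untrained, was made over the members of each section. Of 3571 genes with at least 100 UMIs over the members, 370 were at least 2-fold higher in the section labelled trained (10.4%) and 133 at least 2-fold lower (3.72%), and the median log2 ratio of all these genes was 0.18. Among those past 2-fold, 73.6% were higher, and 49.6% with Ttr and the mitochondrial genes left out of the total. These values compare 2 libraries. Because the members of the section labelled untrained had higher scores, each trained member was also set against the spot of the section labelled untrained with the nearest score. This alternative, chosen after seeing the data, used 50 spots, of which 6 were members, with a largest difference in score of 0.0448 and a median of 17017 UMIs.

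The summed lists of oligodendrocytes, astrocytes and neurons had ratios closer to 0 over the score-matched spots. That of cilia and ependyma was further from 0 (0.22 and -0.70). The single genes below, other than Mbp, were named because their ratios were the highest in the first comparison. Mbp, myelin basic protein, from the oligodendrocyte list, had 3507 CPM in the trained members and 814 in the untrained members (2.11, 2.02 to 2.2), and -0.43 over the score-matched spots. Single members ran from 114 through 1850 to 16241 CPM and from 408 through 643 to 3924 CPM, so the groups overlapped. Ppp1r14a went from 3.23 to 0.97, Ermn from 3.12 to 0.59, Pllp from 2.97 to 0.58, Gatm from 2.57 to 0.14 and Gpm6b from 2.52 to 0.78. Opalin and Mal changed sign, from 2.59 to -0.49 and from 2.45 to -0.10. The summed oligodendrocyte list went from 2.34 (2.28 to 2.40) to -0.15 (-0.20 to -0.10), astrocytes from 1.36 (1.24 to 1.47) to -0.38 (-0.49 to -0.27) and neurons from 1.41 (1.32 to 1.504) to 0.20 (0.11 to 0.29).

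**Figure D5:**
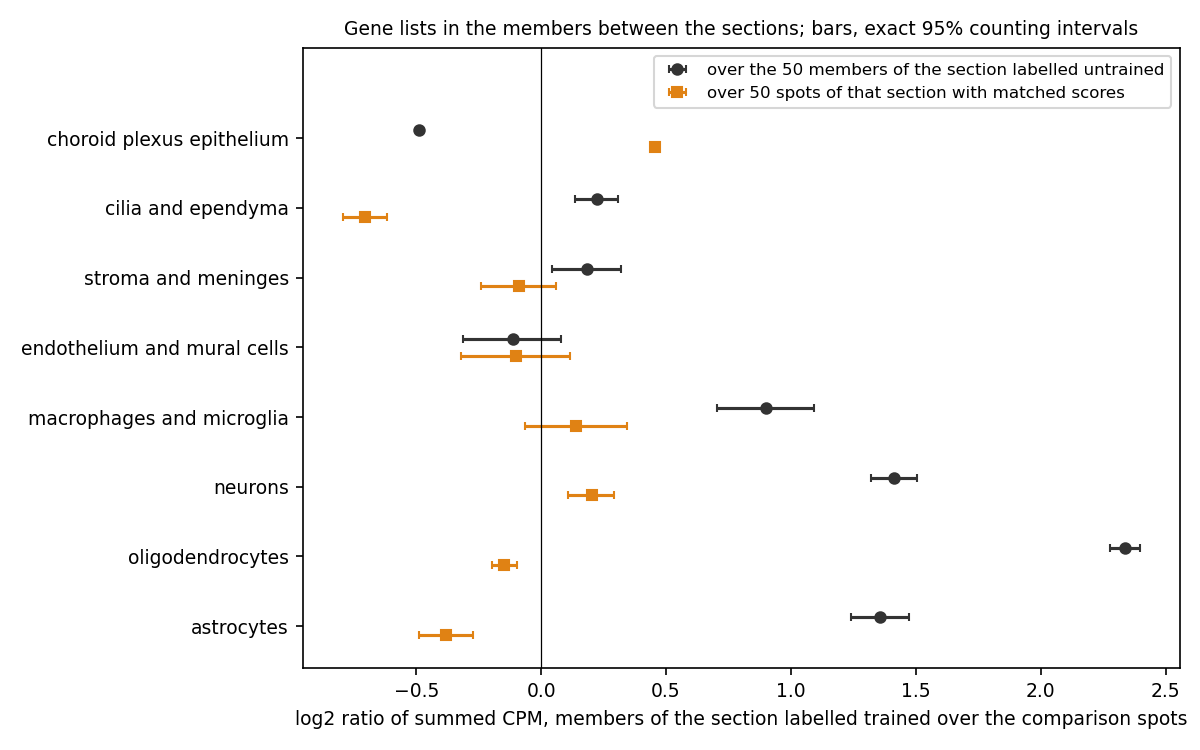
Log2 ratio of the summed CPM of 8 gene lists in the trained members over the untrained members (dark circles) and over untrained spots matched on score (orange squares), with exact 95% counting intervals. Oligodendrocytes move from 2.34 to -0.15 and astrocytes from 1.36 to -0.38, choroid plexus epithelium from -0.49 to 0.46, and cilia and ependyma from 0.22 to -0.70. Ttr holds 98316 of the 100933 UMIs of the epithelium sum in the trained members. The medians of that list are -0.57 and 0.19.

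Arpp21, Penk and Tac1, genes of striatal projection neurons, were at least 2-fold higher in the trained members in both comparisons, but Penk and Tac1 lay at -1.27 and -1.70 in the 6 trained and 45 untrained members that shared a score range. Arpp21, a phosphoprotein regulated by dopamine and cyclic AMP, had 152 CPM in the trained members, 13.5 in the untrained members (3.47, 2.88 to 4.12) and 31.9 in the matched spots (2.24, 1.65 to 2.88). Penk, proenkephalin, had 336, 36.4 and 108 CPM (3.20 and 1.63), and Tac1, the substance P precursor, had 119, 15.7 and 27.0 CPM (2.91 and 2.12). Penk was at 0 in 25 of 50 trained members and reached 3470 CPM in the highest. The remaining spots of the section labelled trained were also higher in Penk (1.71) and Arpp21 (1.14). The part of this difference between the sections in the members' values was not tested.

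The epithelial genes themselves were mostly lower in the trained members and, relative to score-matched spots, mostly not. The trained members had lower scores (median 1.80 against 2.65), and the matching used that same score. The summed list went with the score (r = 0.89 in the trained and 0.49 in the untrained members). The counts that follow therefore cannot tell a difference of the epithelium from the choice of spots. For 20 of the 26 epithelium genes the interval of trained over untrained lay below 0 and for 0 above, where 3.77% and 16.3% of detected genes did so, and the list's median was -0.57. Against the matched spots 1 lay below 0 and 6 above, where 4.68% and 5.89% of detected genes did so, with a median of 0.19. Ttr went from -0.48 to 0.47, Ecrg4 from -0.23 to 0.59, Ace from -0.17 to 0.77 and Otx2 from 0.10 to 0.81. Igf2 stayed lower (-1.24, -1.46 to -1.03, and -0.47), and so did Wfdc2, a secreted protease inhibitor, with 113 CPM in the trained members and 397 in the untrained members (-1.80, -2.21 to -1.44) and -0.70 over the matched spots. Wfdc2 had no UMI in 26 of 50 trained members and 155 CPM or more in every untrained member. The trained members held 62 UMIs of it together and were shallower (median 10247.5 against 46058 UMIs), so a count of 0 there weighs less. The remaining spots of the section labelled trained were lower still in Igf2 (-1.83) and in Wfdc2 (-3.00). In the section labelled untrained, 132 spots reached the trained minimum and 50 were members, so its remaining spots still held high-scoring ones. The remaining spots are thus no baseline free of plexus. Whether Igf2 and Wfdc2 differed relative to their section was not tested.

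Since the score is an average, its 5 genes could differ in composition at a matched score. Kl was at 897 CPM in the trained members and 428 in the matched spots (1.07), while Folr1 was at 172 and 366 CPM (-1.09, -1.43 to -0.76). Kcnj13, Clic6 and Enpp2 were at -0.18, -0.06 and 0.09. These genes chose the spots, and their ratios are a description of the 2 libraries.

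Among the genes lowest in the trained against the untrained members, AA465934 (3.65 against 48.3 CPM; -3.41, and -3.53 matched), Snhg9, a small nucleolar RNA host gene (-3.14 and -3.15), the histone gene Hist1h4i (-2.58 and -2.66) and Gm10076 (205 against 939 CPM; -2.19 and -2.12) kept nearly the same ratio. Both ratios share the same trained counts, which were 2, 5, 6 and 112 UMIs for these genes in that order. For AA465934, Snhg9 and Gm10076 the remaining spots showed ratios of -3.95, -3.15 and -1.75, and for Hist1h4i -0.90. Snhg9 overlaps Rps2 on the opposite strand, and Hist1h4i and Gm10076 have near-identical copies elsewhere, so these counts are uncertain. Efemp2 (-1.89 and -1.06), Loxl1 (-1.90 and -0.59), Lgals3bp (-1.79 and -1.09), Paqr5 (-1.77 and -1.31), Baiap2l1 (-1.75 and -0.62) and Fn3krp (-1.75 and -1.21) were nearer 0 over the matched spots, and in the remaining spots they lay at -0.58, -1.85, -0.97, -0.20, -1.87 and -1.21. Loxl1, Paqr5 and Fn3krp rested on 6 UMIs each in the trained members. The matched intervals of Loxl1 (-2.29 to 0.73) and Baiap2l1 (-1.80 to 0.36) included 0. Ccl9 rested on 3 UMIs in the trained members against 170 in the untrained members (-3.50, -6.01 to -2.14), and had -2.05 over the matched spots.

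With the requirement that the whole interval lie beyond 2-fold, 406 of 16587 detected genes were above in the trained members (2.45%) and 22 below (0.133%). Over the matched spots 36 of 16140 were above (0.223%) and 21 below (0.13%). Of the latter, 6 above and 7 below had at least 100 UMIs, among the 2212 genes with that many. They were named after their values were seen. The 6 were Arpp21, Penk, Map2k1 (1.53), Spag9 (1.51), the cell adhesion gene Vcam1 (186 against 66.6 CPM; 1.48, 1.03 to 1.95) and the actin-binding gene Tmsb10 (711 against 262 CPM; 1.44), and 4 of them were also at least 2-fold higher in the remaining spots. The 7 were Lrrc17 (4 against 149 UMIs; -4.13), the neuronal noncoding RNA Bc1 (40.2 against 526 CPM; -3.68), Gm10076, Agt (-2.03), mt-Atp8 (-1.96), mt-Nd4l (-1.69) and Pla2g7 (-1.57), and 5 of them were at least 2-fold lower in the remaining spots as well.

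Ciliated and ependymal genes were lower in the trained members than in the matched spots. Their sum was 2499 CPM in the trained members, 2143 in the untrained members (0.22, 0.13 to 0.31) and 4069 in the matched spots (-0.70, -0.79 to -0.61), with 12 of 20 intervals below 0 against the matched spots and 0 above, where 4.68% and 5.89% of detected genes did so. Ccdc153 went from 0.80 to -1.22. The position of the matched spots relative to the ventricle wall was not tested.

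The authors' own spatial statistic is computed from the same UMIs as the rule and is given as a description. Moran's I, a score of how alike neighbouring spots are, was 0.627 for Ttr in the section labelled trained (rank 6 of 20513 genes) and 0.555 in the section labelled untrained (rank 14 of 21498). Enpp2, a gene of the rule, had 0.379 (rank 91) and 0.509 (rank 25), Ecrg4 0.402 (rank 67) and 0.416 (rank 94), and Calml4 0.293 (rank 246) and 0.421 (rank 87). Folr1, also of the rule, had 0.181 (rank 641) and 0.357 (rank 185), on 199 and 3453 UMIs.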

How the data were processed

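Spatial gene expression was measured on 2 Visium sections, 1 per condition. The authors deposited raw UMI counts per gene and spot under tissue, and Moran's I, a score of spatial likeness per gene over the section. Space Ranger 2.0.0 and mm10 are named in the submitters' processing notes, and whether counting used strand is not given in the sources used here. Scale factors and images were not used.

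Counts were pooled over members and over remaining spots and given as CPM (per 1000000 UMIs). Log2 ratios used a pseudocount of 0.5 UMIs, with exact conditional binomial 95% intervals for ratios and exact Poisson intervals for levels. PCR and spatial error are not in them: they cover counting error only. Genes needed 400 UMIs in a section, or 100 over the members of both sections, to be counted as past 2-fold. A count of 0 was bounded at 3 UMIs over the members. The procedure was tested on simulated data. The analysis used networkx 3.6.1, pandas 2.3.3, scipy 1.17.1 and numpy 2.4.6 under Python 3.11.15, with figures by matplotlib 3.10.9. Gene positions came from GENCODE vM21, in which 32158 of 32285 genes were found.

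The genes named were the 5 selecting genes, any gene of the 20 lists, the 15 highest and 10 lowest genes in both sections by the smaller ratio, the 12 highest and 12 lowest between sections, and the 5 highest and 5 lowest between the 2 largest patches of a section, without the selecting genes. A few genes that this rule names are not reported here. The members and lists were chosen with earlier results of these data known. The requirement on the whole interval, the score matching, the bands of columns and the genes named from the matched comparison were chosen after seeing the data. Alternatives changed the gene minimum, the number of members, the remaining spots, the weight of spots, the total, the pseudocount, the score range and the depth (spots thinned to 1000 UMIs, seed 7).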

Additional observations from a re-analysis of the deposited data

Results flagged for a closer look

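For 13 named genes the ratio of members over remaining spots lay above 0 in the section labelled trained and below 0 in the section labelled untrained, with intervals that did not include 0 and a ratio of at least 2-fold in 1 of the sections. With 1 section per group the difference between the sections was not tested. The log2 ratio in the section labelled trained minus that in the section labelled untrained was 2.261 for Mbp (0.24 and -2.02), 2.263 for Mobp (0.28 and -1.98), 2.059 for Mog (0.37 and -1.69), 2.132 for Mag (0.42 and -1.72), 1.742 for Cnp (0.25 and -1.49) and 1.926 for Cldn11 (0.39 and -1.54), all genes of oligodendrocytes. It was 2.416 for Ppp1r14a, 2.597 for Ermn, 2.142 for Mal and 1.896 for Qdpr. The astrocyte genes Gfap (1.12 and -1.16) and Aqp4 (0.73 and -1.302) differed by 2.278 and 2.028, and Penk by 1.495. Over all genes, 68 of 8408 had intervals on opposite sides of 0 in this or the other order (0.809%). The members of the section labelled trained also had lower scores (median 1.80 against 2.65), and the part of this in the differences was not tested. For the summed oligodendrocyte genes the sign in the section labelled trained depended on how spots were weighted, as given above.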

How the results depend on the processing

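No paired analysis was possible because each group was 1 section, and no replicate could be left out. Of the counts of genes past 2-fold, 30 alternatives stayed within 1.5 times the value reported. In the section labelled trained, genes higher in the members numbered 1069 with a minimum of 100 UMIs, 104 with 1000, 1254 in thinned spots and 529 with a pseudocount of 5, and lower genes 1104 with a minimum of 1000 and 618 with a pseudocount of 5. In the section labelled untrained, higher genes numbered 1448 with a minimum of 100, 390 with 1000 and 1884 in thinned spots. Between the sections, genes higher in the trained members numbered 848 with a minimum of 50 UMIs, 48 with 400, 225 without Ttr and mitochondrial genes in the total, 816 in thinned spots and 77 over score-matched spots. Genes lower there numbered 237, 45, 229, 509 and 83 under the same settings, 328 in the shared score range, 61 with a pseudocount of 5 and 27 after subtracting the ratio of the remaining spots. For single genes and list sums, 1120 alternatives moved a value little, 683 moved it and 21 turned its direction or took it to 0.0. In thinned spots members over remaining spots turned to 0.16 (trained) and 2.24 (untrained) for 9130024F11Rik and 0.36 for Abcd2 (trained), all on few UMIs. Trained over untrained reached 0.0 for Hist1h4i, which is no change of sign. In the shared score range, which held 6 trained members, trained over untrained turned to -1.27 for Penk, -1.70 for Tac1, -0.36 for Opalin, -0.0132 for Gpm6b, -0.10 for summed oligodendrocytes and -0.68 for summed astrocytes. Over score-matched spots it turned to -0.49 for Opalin, -0.10 for Mal, -0.15 for summed oligodendrocytes and -0.38 for summed astrocytes. After subtracting the ratio of the remaining spots it turned to 0.59 for Igf2, 0.54 for AA465934, 0.00699 for Snhg9, 1.20 for Wfdc2, 0.11 for Baiap2l1, 1.08 for Folr1 and 0.85 for Clic6. The remaining spots of the section labelled untrained included some that scored as high as trained members. The cause was not tested. Depth limits genes with few UMIs in the members labelled trained, which held 547425 UMIs against 2362503.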
